A study of Mus musculus with 42 samples.

Results

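Among the livers of 20 old female mice, 8 carried abundant neutrophil transcripts and 12 did not, and these sets of livers are compared here within diet. The division was made from the measured levels of S100a8 and S100a9 and of 3 further neutrophil granule genes, Ngp, Camp and Ltf. Control females 5, 6 and 9 and Rapa females 3, 5, 8, 9 and 11 formed the high set, and control females 1, 2, 3, 4, 7 and 8 and Rapa females 1, 2, 4, 6, 7 and 10 formed the low set. Because the mice were selected on measured levels, those 5 genes are given below as a description only, and the differences of other genes say which transcripts moved together with them.

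The 20 females were part of a series of 42 arrays, 1 per mouse, that also held 22 males. All were C57BL6/N mice aged 25 months, and total RNA from whole liver was hybridized to Illumina MouseRef-8 bead arrays. Rapa mice ate chow with 14 ppm of encapsulated rapamycin, an inhibitor of the mTOR kinase, for 6 months from the age of 19 months, and control mice ate the same chow with empty capsules. There were 9 control and 11 Rapa females, and replicate numbers serve only as names.

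Neutrophils are short-lived white blood cells made in bone marrow, where they fill their granules with antimicrobial proteins before they are released. When tissue is injured or infected, cytokines such as interleukin-6 drive hepatocytes into the acute phase response, in which secretion of defence proteins such as serum amyloid A goes up while many enzymes of fat oxidation, detoxification and bile handling go down. Whole liver holds hepatocytes together with resident macrophages (Kupffer cells), endothelium, stellate cells, bile duct cells and blood.

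Levels are log2 of the array signal after quantile normalization, and a ratio is the high set minus the low set on that scale, adjusted for diet, with its standard error. A transcript (1 probe) was called higher or lower when limma's moderated test gave a Benjamini-Hochberg adjusted p under 0.05 over all 12719 tested transcripts and the absolute ratio was over 0.15. The p-values measure the spread between these mice, and the number of arrays limits the precision. Hepatocyte transcripts dominated all 20 livers, with Ttr between 15.16 and 15.64 and Apoa1 between 15.13 and 15.61, although the Alb probe read only 7.19 to 8.29.

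S100a8, which with S100a9 forms calprotectin of the neutrophil cytosol, lay between 13.32 and 15.2 in the high set (median 14.3) and between 8.49 and 11.56 in the low set (median 9.82). S100a9 ranged from 11.67 to 14.34 in the high set and from 7.67 to 9.93 in the low set. The gap separated the sets completely for both genes.

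The 3 granule genes gave the same division at lower signal. Ltf, which encodes lactoferrin, lay between 10.46 and 13.62 in the high set and between 6.98 and 8.44 in the low set. Camp, the cathelicidin precursor, lay between 9.12 and 12.46 against 6.76 to 7.56, and Ngp, another granule protein, between 8.92 and 12.15 against 7.14 to 7.56. In the low set Ltf was detected in 5, Camp in 2 and Ngp in 3 of the 12 livers, so that most of their low values are at background.

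The score of a liver is the mean of these 5 genes, each centred on its mean over the females. It was 3.85 in control female 9, 3.51 in control female 5, 3.19 in Rapa female 9 and 2.6 in Rapa female 11. The members nearest to the boundary were Rapa female 8 at 0.99 on the high side and control female 3 at -0.71 on the low side. Within the high set the levels were graded and not a single plateau.

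**Figure D1:**
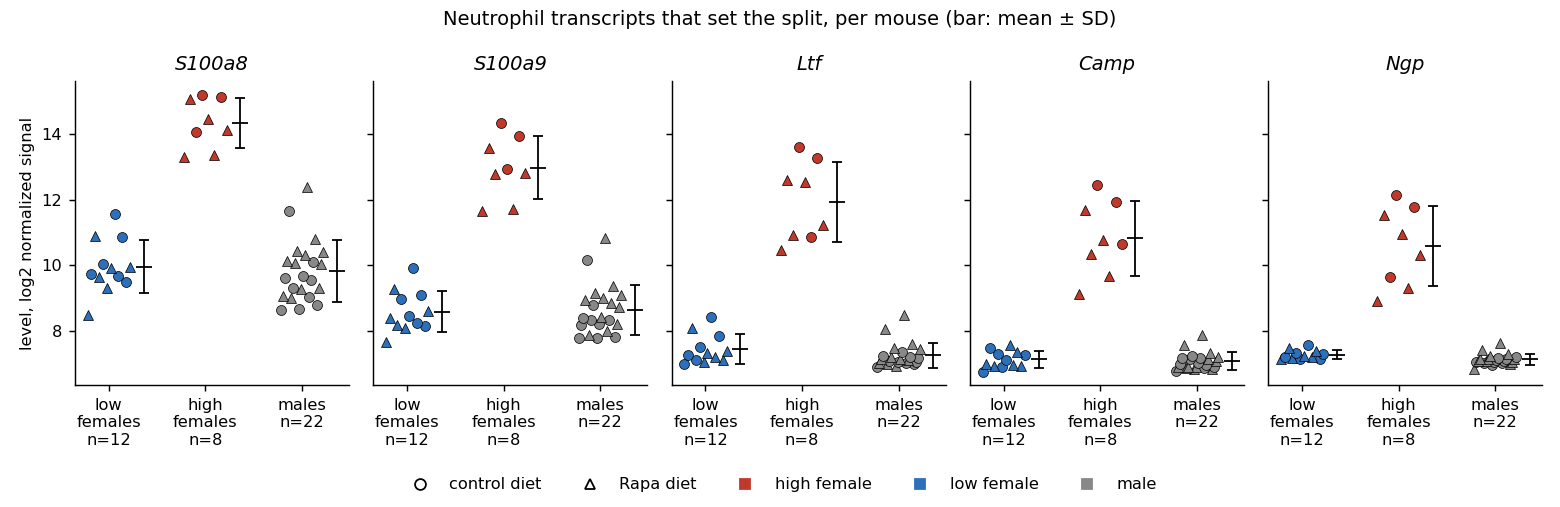
Log2 level (vertical axis) of the 5 genes that defined the sets, 1 point per mouse (circles control diet, triangles Rapa), in low females, high females and the 22 males, with bars of mean ± SD. S100a8 lay at 13.32 or more in the high set and at 11.56 or less in the low set.

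The 22 males had no liver in the range of the high females. Their S100a8 lay between 8.63 and 12.39 and their S100a9 between 7.79 and 10.83, and only Rapa male 12 and control male 3 exceeded the low females in either gene. The males serve below as mice that the division did not use.

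High livers occurred in both diets, in 3 of 9 control and 5 of 11 Rapa females (odds ratio for Rapa 1.62, 95% interval 0.197 to 15.6; Fisher's exact test, two-sided p = 0.67). Technical measures of the arrays overlapped between the sets. The median signal was 110.6 to 150.7 in the high and 111.4 to 153.5 in the low set, and 9519 to 11580 against 9896 to 11210 probes were detected. In 5 such measures the exact permutation test within diet gave two-sided p-values from 0.0923 to 0.832 (adjusted over the 5, 0.461 to 0.832). Control females 6 to 9 stood apart from the rest on 9720 probes detected on no array, and 2 of these 4, control females 6 and 9, are in the high set. Without the 4, the first principal component of the never-detected probes differed between the sets by -1.99 (exact permutation test, unadjusted p = 0.0134), and its part in the ratios was not tested.

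Between high and low livers 2773 transcripts were called, 1145 higher (9% of those tested) and 1628 lower (12.8%). They belonged to 958 genes that were higher and 1233 that were lower, and 921 of the higher genes were outside the neutrophil lists. The median ratio over all tested transcripts was -0.01. Higher transcripts reached larger ratios more often, with 125 above 1 and 75 below -1. With each array centred on its median in place of quantile normalization, 523 were higher and 3687 lower and the median ratio was -0.10, so that the balance of directions depended on the scaling. Leaving out control female 9, the liver with the highest score, left 913 higher and 1203 lower, and leaving out control females 6 to 9 left 2153 calls in all.

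In 41 transcripts (0.322% of those tested) every high liver was above every low liver, and in 43 (0.338%) every high liver was below. The 41 include 17 transcripts of the neutrophil lists, among them the 5 defining genes whose separation the rule fixed, and 24 others, whereas the 43 hold 0 from those lists. The high-low difference was not called as different between diets for any transcript (limma interaction term, 0 called, lowest adjusted p = 0.847), while 708 transcripts had an unadjusted p under 0.05 in that test. Within 3 against 6 control females alone 1177 transcripts were called, and within 5 against 6 Rapa females 572.

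Other neutrophil genes are close companions of the defining 5. Those counted as higher below passed the same threshold of calling, which is given as a description only and without p-values. Of 18 genes of granule and precursor proteins on the array 15 passed the detection filter, and all 15 were higher, with a median ratio of 1.81. Some passed that filter only through the high livers, such as Ctsg, detected in 8 high livers, 0 low livers and 1 male. The count of 15 was thus partly fixed by the division. Mpo (myeloperoxidase) lay between 9.41 and 11.93 in the high set and between 6.8 and 7.49 in the low set, where 1 of 12 livers had a detected signal. Elane (neutrophil elastase) lay between 8.94 and 11.53 against 7.21 to 7.62.

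Ctsg (cathepsin G) was well above background in all 8 high livers and in none of the 12 low livers, and was at least 4.46-fold higher, the bound being set by the dimmest detected signals. Mpo, Elane and Ctsg are transcribed mainly in immature neutrophils of the marrow. Of 14 measured genes of mature neutrophil receptors and secreted proteins 9 were higher (median ratio 0.44), among them Retnlg with 8.7 to 11.6 in the high and 7.0 to 7.72 in the low set. Of 9 genes of the phagocyte oxidase and beta2 integrins 8 were higher (median 0.87).

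In Prtn3 (proteinase 3) and Lcn2 (lipocalin 2) the top of the low set came close to or into the high range. Prtn3 lay between 12.15 and 12.75 in the high livers and between 7.07 and 12.11 in the low livers, without overlap. Lcn2, which hepatocytes also make in the acute phase, lay between 14.33 and 15.68 against 9.78 to 15.04. One low liver, Rapa female 10, carried 15.04 of Lcn2, and the same mouse stands out again in the liver genes below.

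Acute phase genes rose as a group. Of 38 measured genes of positive acute phase proteins 31 were called higher and 1 lower, with a median ratio of 0.81 against -0.01 over all transcripts. These genes were not used in the division, and this share stands beside 9% of all transcripts called higher.

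Saa1 and Saa2 encode the serum amyloid A proteins that the liver secretes in the acute phase. Saa1 lay between 8.6 and 13.12 in the high set (median 12.41) and between 7.89 and 12.21 in the low set (median 8.63), a ratio of 3.16 ± 0.56 (limma, adjusted p = 0.000452). Saa2 ranged from 8.17 to 12.68 against 7.31 to 11.56, with a ratio of 2.84 ± 0.52 (adjusted p = 0.000633). Within Rapa females alone neither gene was called. Both sets overlapped through 2 mice, Rapa female 9 at the bottom of the high set and Rapa female 10 at the top of the low set. The sequences of these genes are nearly identical, and a probe of one may take signal from the other.

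Orm2, an acute phase lipocalin of plasma, lay between 14.03 and 15.53 in the high set (median 15.4) and between 10.58 and 15.51 in the low set (median 11.89), and its ratio was 3.04 ± 0.44 (adjusted p = 8.42e-05). Apcs, the serum amyloid P component, lay between 12.73 and 14.23 against 9.97 and 12.84, with a ratio of 2.30 ± 0.24 (adjusted p = 4.29e-06). The protease inhibitor gene Serpina3n rose by 1.40 ± 0.18 and Itih3, of the inter-alpha-trypsin inhibitor family, by 1.35 ± 0.17. In all 4 genes the highest low liver was Rapa female 10.

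Mt2, a metallothionein that binds zinc and is induced by interleukin-6 and glucocorticoids, lay between 9.44 and 12.07 in the high set (median 11.23) and between 7.36 and 9.55 in the low set (median 7.61). Its ratio of 3.34 ± 0.28 (adjusted p = 2.86e-07) was positive in both diets. The sets crossed only where Rapa female 9 (9.44) met Rapa female 10 (9.55). Cxcl1, a chemokine that attracts neutrophils, lay between 11.36 and 13.68 against 9.09 and 12.18, with a ratio of 2.63 ± 0.38 (adjusted p = 8.14e-05).

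The interleukin-6 signalling genes of the list were also higher. Stat3, the transcription factor of this pathway, lay between 11.32 and 12.16 in the high set and between 10.74 and 11.46 in the low set (ratio 0.67 ± 0.11). Socs3, its feedback inhibitor, lay between 9.74 and 11.91 against 8.19 and 11.17 (ratio 2.22 ± 0.35). Not every acute phase gene moved. Hp (haptoglobin) had a ratio of 0.18 ± 0.10 (adjusted p = 0.24) and Crp (C-reactive protein, in mice a minor reactant) of 0.17 ± 0.09 (adjusted p = 0.21). Both were near the top of the signal range in all females, with Hp at 14.57 or more and Crp at 14.06 or more.

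The promoters of the serum amyloid A genes, Mt2 and Apcs are shown because these genes rose most among secreted acute phase proteins and stress proteins for which a known type of acute phase motif was found. They are windows of 300 bases around the annotated start (RefSeq, mouse build GRCm38.p6), and the capitals mark a match to TTGCNNAAT, the kind of site that C/EBP factors bind, in Saa1 (chr7:46742931-46743230, minus strand), Saa2 (chr7:46751583-46751882, plus strand) and Mt2 (chr8:94172368-94172667, plus strand), or to TTCNNNGAA, the kind of site that STAT factors bind, in Apcs (chr1:172895005-172895304, minus strand):
Saa1: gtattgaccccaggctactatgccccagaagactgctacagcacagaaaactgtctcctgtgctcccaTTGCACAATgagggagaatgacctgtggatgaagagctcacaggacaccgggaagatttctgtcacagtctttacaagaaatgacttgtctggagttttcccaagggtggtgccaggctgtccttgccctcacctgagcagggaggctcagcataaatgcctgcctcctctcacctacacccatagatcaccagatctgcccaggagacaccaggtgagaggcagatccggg
Saa2: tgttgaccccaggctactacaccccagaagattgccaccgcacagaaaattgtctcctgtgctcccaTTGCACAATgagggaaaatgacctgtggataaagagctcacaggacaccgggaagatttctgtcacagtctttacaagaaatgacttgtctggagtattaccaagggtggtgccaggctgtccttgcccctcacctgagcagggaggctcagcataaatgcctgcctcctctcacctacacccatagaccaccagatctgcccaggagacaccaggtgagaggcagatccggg
Mt2: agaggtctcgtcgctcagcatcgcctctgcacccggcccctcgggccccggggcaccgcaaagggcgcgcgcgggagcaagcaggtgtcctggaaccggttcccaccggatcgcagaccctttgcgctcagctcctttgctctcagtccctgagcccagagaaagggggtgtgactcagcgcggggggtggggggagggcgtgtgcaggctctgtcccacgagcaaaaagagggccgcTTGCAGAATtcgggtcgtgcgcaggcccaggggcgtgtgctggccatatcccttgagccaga
Apcs: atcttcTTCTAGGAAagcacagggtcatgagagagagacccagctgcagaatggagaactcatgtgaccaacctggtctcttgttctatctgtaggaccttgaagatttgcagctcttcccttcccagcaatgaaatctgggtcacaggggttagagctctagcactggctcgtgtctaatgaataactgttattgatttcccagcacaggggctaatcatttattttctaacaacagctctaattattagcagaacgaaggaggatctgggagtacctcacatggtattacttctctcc
Both strands were searched. The match began at position -182 from the start in Saa1, at -183 in Saa2, at -12 in Mt2 and at -244 in Apcs.

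Over 32851 mouse promoter windows of this length TTGCNNAAT occurred in 2.4% and TTCNNNGAA in 8.3%. Of the 10 genes with the largest increase, all with a window, 3 held the first and 2 the second motif. The 3 were Saa1, Saa2 and Mt2, and the windows of Saa1 and Saa2 are nearly identical and not independent. Of the 10 with the largest decrease, 6 had a window, and 1 of these held the first and 2 the second. GGGNNTTCC, an NF-kB-like motif present in 5.82% of windows, occurred in none of these 16. TGCNCNC, the core of the metal response element, occurred 6 times in the Mt2 window, but 51% of all windows held at least 1 such core. A match is a description of the letters and not a measured site.

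Serpina1e, of the alpha-1 antitrypsin family, had the largest increase outside the neutrophil lists. It lay between 12.79 and 15.59 in the high set (median 14.51) and between 8.55 and 12.52 in the low set (median 10.46), a ratio of 3.97 ± 0.46 (adjusted p = 1.33e-05). The sets did not overlap. In males the same probe lay between 10.63 and 15.56 with a median of 14.6, in the range of the high females. Copies of this family are nearly identical, and the probe may read more than 1 of them.

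C8a and C8b encode the alpha and beta chains of complement C8, part of the membrane attack complex. C8a lay between 11.37 and 12.54 in the high set and between 8.22 and 12.26 in the low set, with a ratio of 2.52 ± 0.40 (adjusted p = 0.000196). C8b lay between 11.1 and 12.16 against 8.16 and 11.59, with a ratio of 2.54 ± 0.32 (adjusted p = 2.16e-05). For both genes Rapa female 10 was the highest low liver, and the other low livers were below every high liver.

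Egfr, the receptor of epidermal growth factor, lay between 10.91 and 11.98 in the high set (median 11.64) and between 8.2 and 11.64 in the low set (median 8.75). The ratio was 2.50 ± 0.31 (adjusted p = 2.02e-05), and 4 of its 4 tested probes were called higher. Rapa female 10 was the low liver at 11.64, and the other 5 low Rapa females were at 8.92 or less.

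Genes of fatty acid oxidation fell as a group. Of 29 measured genes 23 were called lower and 0 higher and only 1 of the 29 ratios was above 0, with a median of -0.62. The share stands beside 12.8% of all transcripts called lower.

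Cyp4a14, a cytochrome P450 that hydroxylates fatty acids and a target of the receptor PPARalpha, had the largest decrease of all named genes. It lay between 7.09 and 10.63 in the high set (median 9.05) and between 8.58 and 14.34 in the low set (median 13.16), a ratio of -4.13 ± 0.57 (adjusted p = 5.76e-05). Cyp4a31, of the same family, lay between 6.92 and 7.95 against 7.52 and 11.35, with a ratio of -2.86 ± 0.34 (adjusted p = 1.46e-05), and its signal was above background in 4 of 8 high and 12 of 12 low livers. Rapa female 10 held the lowest low value of both genes. Probes of the Cyp4a cluster may read more than 1 member.

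Acyl-CoA thioesterases, which release free fatty acids from coenzyme A, moved with them. Acot1, the cytosolic form, lay between 8.08 and 9.67 in the high and 8.11 and 12.6 in the low set (ratio -2.80 ± 0.40, adjusted p = 8.14e-05). Acot3, a peroxisomal form, lay between 7.28 and 9.99 against 9.65 and 12.56 (ratio -3.12 ± 0.37, adjusted p = 1.46e-05). Acot4 lay between 7.87 and 9.73 against 9.8 and 10.79 (ratio -1.50 ± 0.18), with no overlap. The 3 genes are close neighbours in sequence.

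Acaa1b, a peroxisomal thiolase, lay between 11.34 and 13.61 in the high set and between 13.65 and 15.47 in the low set, a ratio of -2.33 ± 0.25 (adjusted p = 4.61e-06). Hadhb, the beta subunit of the mitochondrial trifunctional protein, lay between 11.38 and 12.01 against 12.16 and 12.57 (ratio -0.59 ± 0.07, adjusted p = 1.19e-05). For both genes every high liver was below every low liver. Cpt2, carnitine palmitoyltransferase of the inner mitochondrial membrane, fell by 0.85 on the log2 scale, and Ppara, which encodes the receptor PPARalpha itself, fell by 0.46 and was detected in 3 of 8 high and 10 of 12 low livers.

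**Figure D2:**
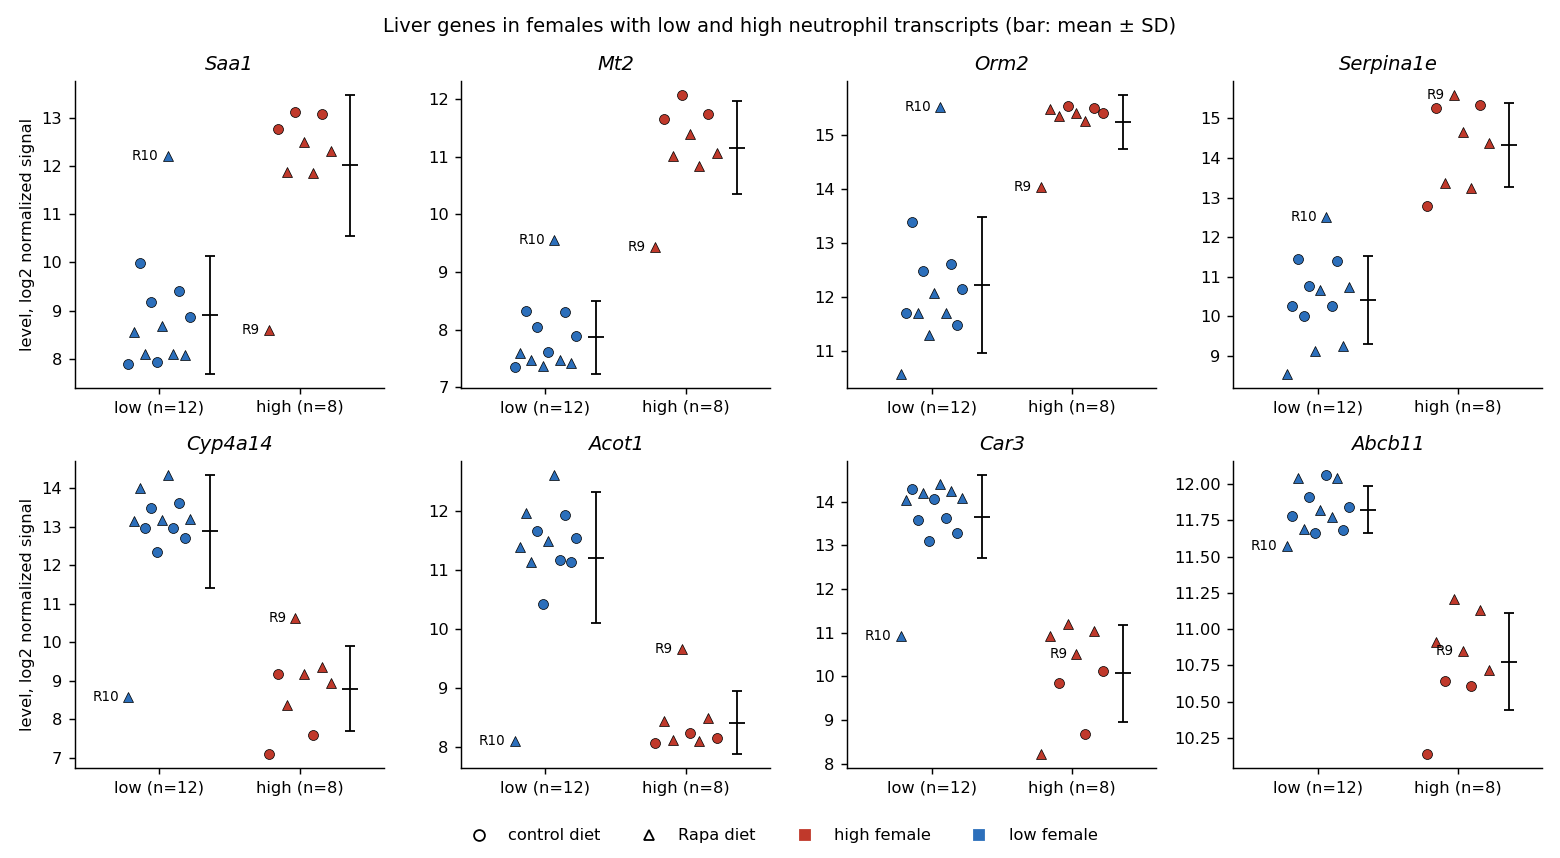
Log2 level (vertical axis) of 8 liver genes outside the neutrophil lists, 1 point per mouse (circles control diet, triangles Rapa), in low and high females, with bars of mean ± SD and Rapa females 9 and 10 marked R9 and R10. Rapa female 10, in the low set, had 12.21 of Saa1 and 8.58 of Cyp4a14, and Rapa female 9, in the high set, had 8.6 of Saa1.

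Genes of conjugation and transport, which make drugs, steroids and bile acids soluble and move them, were lower in 28 of 38 and higher in 0, with a median ratio of -0.55. Abcb11, the bile salt export pump, lay between 10.14 and 11.21 in the high set and between 11.57 and 12.06 in the low set (ratio -1.07 ± 0.10, adjusted p = 1.06e-06). Gsta4 and Gstt3, glutathione transferases, fell by 1.41 and 1.04, and Sult1c2, a sulfotransferase, fell by 1.81. In these 4 genes the sets did not overlap.

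Of 43 cytochrome P450 genes 20 were lower and 2 higher (median ratio -0.37). The 2 were Cyp3a13 (0.36 ± 0.12, adjusted p = 0.0402) and Cyp4f16 (0.29 ± 0.08, adjusted p = 0.00967). Cyp4v3, which hydroxylates fatty acids, fell by 0.89 and Cyp2d26 fell by 0.40. Cyp7a1, the rate-limiting enzyme of bile acid synthesis, had a ratio of -0.37 ± 0.25 and was not called (adjusted p = 0.307).

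Car3, a carbonic anhydrase abundant in liver and fat, lay between 8.22 and 11.2 in the high set (median 10.31) and between 10.93 and 14.41 in the low set (median 14.04). The ratio was -3.63 ± 0.43 (adjusted p = 1.46e-05), and the overlap again came from Rapa female 10 at 10.93. Hao2, a peroxisomal hydroxyacid oxidase, was detected in 1 of 8 high and 11 of 12 low livers (6.73 to 7.39 against 6.86 to 10.69), with a ratio of -2.70 ± 0.31 (adjusted p = 1.33e-05). In the 22 males Hao2 lay between 6.72 and 7.86, close to the high females.

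A1bg, a plasma glycoprotein gene, spread widely within the high set. It lay between 7.06 and 14.15 there (median 10.44) and between 12.74 and 15.23 in the low set (ratio -4.10 ± 0.74, adjusted p = 0.000596). Control female 9, Rapa female 9 and Rapa female 11 were at 7.06, 7.29 and 7.99, whereas control female 6 was at 14.15, as high as low livers. In males the probe lay between 6.86 and 8.16. Serpina6, the corticosteroid-binding globulin of plasma, lay between 8.77 and 11.61 against 10.72 and 14.6 (ratio -2.42 ± 0.47, adjusted p = 0.00108), and in males it lay between 9.48 and 11.86.

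Cyp4a14 in males, by contrast, lay between 11.41 and 14.5, in the range of the low females and above every high female. Hao2 and Serpina1e of the high females were thus near male levels and Cyp4a14 was not. Male medians were also nearer to the high than to the low median for C8a (11.57), C8b (11.65), Egfr (10.47), Hamp2 (11.36), Acot3 (9.19) and Serpina6 (10.89). For Saa1, Saa2, Mt2, Orm2, Cxcl1, Apcs, Car3, Cyp4a31, Acot1 and Acaa1b they were nearer to the low median. A1bg lay in the male range in 3 of the 8 high females and above every male in the other 5. Males were on both diets, and the levels of the sexes are given side by side without a test.

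**Figure D3:**
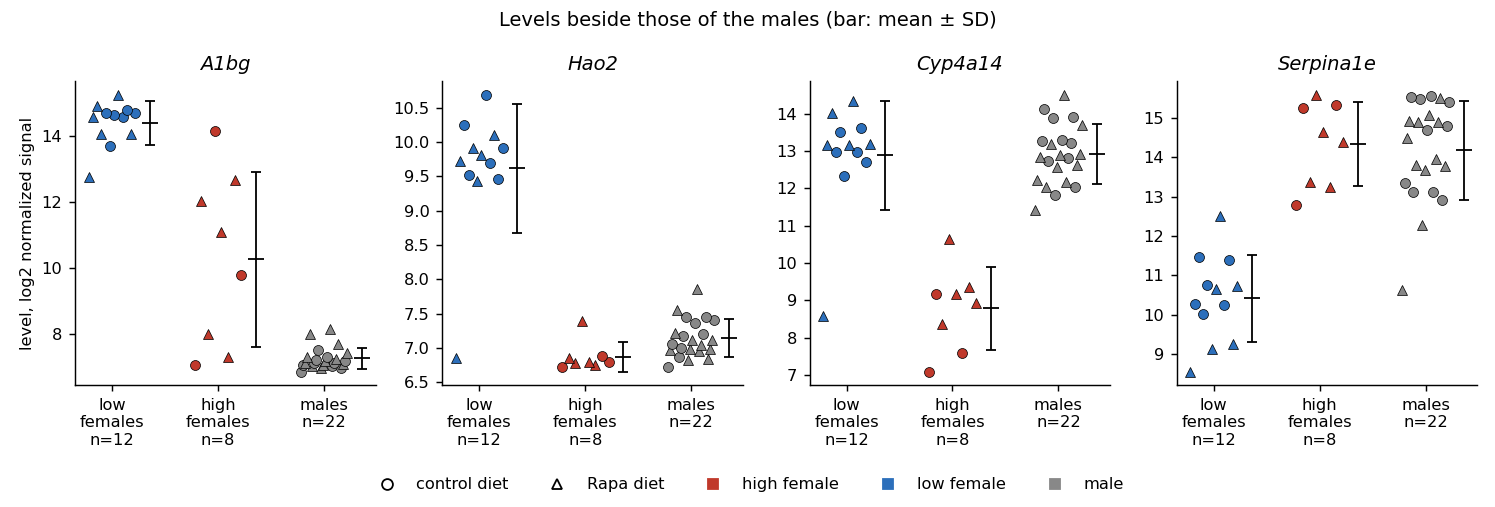
Log2 level (vertical axis) of A1bg, Hao2, Cyp4a14 and Serpina1e, 1 point per mouse (circles control diet, triangles Rapa), in low females, high females and males, with bars of mean ± SD. A1bg lay at 8.16 or less in all 22 males and at 12.74 or more in the low females.

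Genes with sex-biased expression or under growth hormone control were lower in 9 of 25 and higher in 1. The higher gene was Igfbp1, a binding protein of insulin-like growth factors, with 0.82 ± 0.27 (adjusted p = 0.0379). Ghr, the growth hormone receptor, lay between 11.85 and 12.99 in the high and 12.8 and 13.65 in the low set (ratio -0.79 ± 0.15). Cux2, a female-biased repressor, fell by 0.71 and Cyp2b9, a female-biased P450, fell by 1.68, while Hsd3b5, a male-biased gene, was detected in none of the 20 livers.

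Hamp2, a hepcidin-like gene next to the iron regulator Hamp, was the single acute phase gene called lower. It lay between 8.17 and 13.54 in the high set and between 13.82 and 15.31 in the low set, with no overlap and a ratio of -3.11 ± 0.51 (adjusted p = 0.000267). Hamp itself lay between 8.34 and 14.84 against 14.23 and 15.2 and was not called (ratio -1.34 ± 0.57, adjusted p = 0.0981). Of 19 genes of iron handling 5 were higher and 4 lower.

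Other metabolic lists moved less. Of 31 genes of amino acid and urea metabolism 10 were lower and 3 higher, the latter being Asns, Psat1 and Got1, enzymes of amino acid synthesis and transamination, with ratios of 0.82, 0.49 and 0.37. Of 18 genes of glucose and glycogen metabolism 8 were lower, among them Slc2a2, the hepatocyte glucose transporter, with 10.63 to 12.07 against 11.69 to 12.56 (ratio -0.87 ± 0.14). Of 32 genes of lipogenesis and cholesterol synthesis 9 were lower and 2 higher. Srebf1, a regulator of lipogenesis, fell by 1.09 and the desaturases Fads1 and Fads2 fell by 0.65 and 1.28, whereas Sqle and Srebf2 of the cholesterol pathway rose by 0.96 and 0.33.

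Respiratory chain genes were lower in 24 of 71 and higher in 2, with a median ratio of -0.19. Ndufa10, of complex I, lay between 11.78 and 12.09 in the high set and between 12.11 and 12.49 in the low set, and fell by 0.34. Sdhb, of complex II, and Uqcrc1, of complex III, fell by 0.62 and 0.46. Cytosolic ribosomal protein genes showed the opposite balance, with 27 of 57 higher and 0 lower and a median of 0.30. Rpl13a, for example, lay between 9.32 and 10.63 against 9.09 and 9.79 (ratio 0.59 ± 0.11). With median centring the ribosomal median was 0.05, with 2 genes higher and 4 lower, so that this group did not keep its direction of calls under that scaling.

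**Figure D4:**
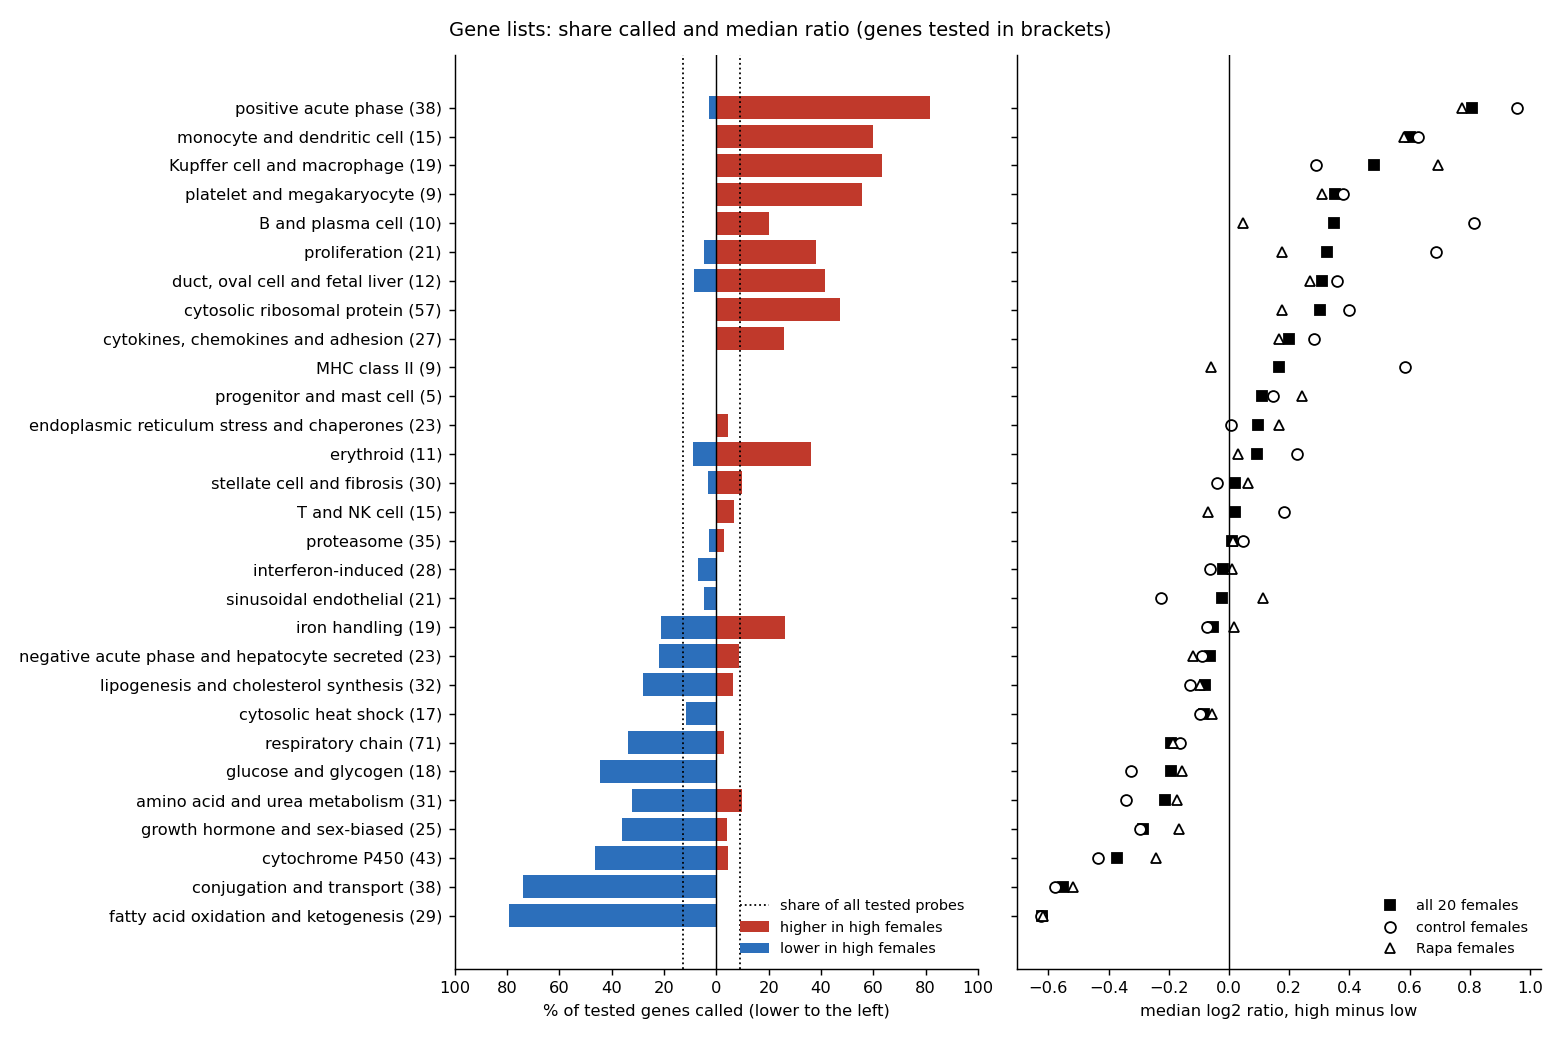
Left, percent of each list's tested genes called higher (red, to the right) or lower (blue, to the left) in the high females, with dotted lines at the 9% and 12.8% of all tested probes; right, median log2 ratio of each list in all females (squares), control females (circles) and Rapa females (triangles). Acute phase genes had a median of 0.81 and fatty acid oxidation genes of -0.62.

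Plasma proteins that usually fall or stay level in the acute phase were a mixed group. Of 23 genes 5 were lower and 2 higher (median ratio -0.06, and -0.0417 to -0.0804 on leaving out single females). Pon1, paraoxonase of high-density lipoprotein, fell by 0.43, and Fetub and Hrg, of the cystatin family, rose by 0.64 and 0.76. Apoa1 had a ratio of -0.06 ± 0.06 (adjusted p = 0.507) and Ttr of -0.12 ± 0.05 (adjusted p = 0.0835).

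Markers of other white blood cells were examined beside these groups, since a bulk liver sample cannot tell more cells of a type from more RNA per cell. Which cells carried the monocyte and macrophage transcripts below, neutrophils or others, was not tested. Of 15 monocyte and dendritic cell genes 9 were higher and 0 lower (median ratio 0.60). Ly6c1 lay between 8.49 and 10.84 in the high and 7.17 and 8.23 in the low set, with no overlap (ratio 1.94 ± 0.23, adjusted p = 1.48e-05). F13a1, a coagulation factor subunit made by monocytes and platelets, lay between 7.64 and 9.69 against 6.88 and 7.48, was detected in 1 of 12 low livers, and rose by 1.27. Plac8 and Lst1, expressed in myeloid cells, rose by 1.43 and 0.53.

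Of 19 Kupffer cell and macrophage genes 12 were higher and 0 lower (median ratio 0.48). Cd14, the lipopolysaccharide coreceptor, lay between 9.31 and 10.65 against 7.81 and 9.84 (ratio 1.55 ± 0.23), and C1qa of complement C1 and Aif1 rose by 0.64 and 0.67. Vsig4, a complement receptor of resident Kupffer cells, rose by 0.54, whereas the resident markers Clec4f (0.38 ± 0.16, adjusted p = 0.0996) and Marco (0.50 ± 0.30, adjusted p = 0.253) were not called. Within control females 1 of the 19 genes was higher and 1 lower, and within Rapa females 11 were higher. With median centring 5 of the 19 were higher and 1 lower. In Rapa female 9, with the highest macrophage index of all females at 0.85, the acute phase index was 0.07.

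MHC class II and lymphocyte genes had few calls. Of 9 MHC class II genes 0 were called, with Cd74 at 0.23 ± 0.32 (adjusted p = 0.651) and H2-Aa at 0.13 ± 0.34 (adjusted p = 0.82). Of 15 T and NK cell genes only Nkg7 was called (0.51 ± 0.15), and of 10 B and plasma cell genes 2 were higher, Ly6d and Tnfrsf17, the latter not without control females 6 to 9. The median of the B cell list was 0.35 in all females, 0.81 in control and 0.05 in Rapa females. Without control female 9, whose B cell index was 2.38 against 0.79 or less in the others, it was 0.01 in all females. Without the same mouse the MHC class II median was -0.09 and that of T and NK cells -0.08.

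Blood cell genes other than those of white cells were also measured. Hba-a1 and Hbb-bt, the haemoglobin genes, lay between 13.58 and 15.01 against 12.99 and 14.01 and between 9.57 and 12.45 against 9.04 and 10.97, with ratios of 0.95 ± 0.15 and 1.20 ± 0.22. Slc4a1, the anion exchanger of red cells, rose by 0.90, yet the erythroid list as a whole had 4 of 11 genes higher, 1 lower and a median of 0.09, which moved between 0.0254 (without control female 6) and 0.163 (without Rapa female 9). Of 9 platelet and megakaryocyte genes 5 were higher, among them Ppbp (7.53 to 9.13 against 6.83 to 7.99, ratio 0.99 ± 0.17), while Pf4 had a ratio of 0.64 ± 0.37 (adjusted p = 0.226). The part of blood content in the ratios of liver genes was not tested.

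Proliferation genes were higher in 8 of 21 and lower in 1 (median 0.32). Hmgb2, a chromatin protein of dividing cells, lay between 7.85 and 9.67 against 7.29 and 8.35 (ratio 0.94 ± 0.16), and Plk1 and Nusap1, of mitosis, rose by 0.64 and 0.65 but were detected in 3 and 2 of the 12 low livers. The median was 0.69 in control and 0.18 in Rapa females and 0.19 without control female 9. This gives a range and no test of a difference between diets.

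Cytokine, chemokine and adhesion genes were higher in 7 of 27 and lower in 0 (median 0.20, and 0.11 with 5 genes higher without control female 9). Icam1, the endothelial ligand of neutrophil integrins, lay between 9.38 and 10.54 in the high and 8.61 and 9.36 in the low set (ratio 0.79 ± 0.13, adjusted p = 0.000233), with no overlap. Ccl6, a chemokine of myeloid cells, rose by 0.84 and Cxcl14 by 1.16.

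The listed interferon-induced genes did not join them. Of 28 genes 0 were higher and 2 lower, Oasl1 and Usp18, with ratios of -0.51 and -0.49. The median was -0.02 (-0.0571 to 0.0102 on leaving out single females). Ifitm2, of the interferon-induced transmembrane family, was not in this list and was called higher, with a ratio of 0.96 ± 0.12. Stress lists were also mostly uncalled. Of 23 genes of endoplasmic reticulum stress only Xbp1, a transcription factor of secretory capacity, was called (0.58 ± 0.10). Of 17 genes listed as cytosolic heat shock genes Stip1 and Hspd1, the latter a mitochondrial chaperonin, were lower. Of 35 proteasome genes Psmb5 was higher and Psmd5 lower. The calls of Psmb5 and Psmd5 were lost on leaving out 9 and 8 of the 20 females singly, and Usp18 was not called without control females 6 to 9.

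Structural cells showed few calls. Of 30 stellate cell and fibrosis genes 3 were higher and 1 lower, with S100a6, a calcium-binding protein, at 8.33 to 10.41 against 7.64 to 9.28 (ratio 1.31 ± 0.23) and Col1a1 at 0.06 ± 0.11 (adjusted p = 0.745). The other 3 calls, Pdgfra, Vim and Timp3, were lost without control female 9, and those of Vim and Timp3 also on leaving out 11 and 10 of the 20 females singly. Of 21 sinusoidal endothelial genes only Ptprb was called, and it was lower, a call lost on leaving out 10 of the 20 females singly. Of 12 duct, oval cell and fetal liver genes 5 were higher and 1 lower, with Krt18, a keratin of simple epithelia, at 0.53 ± 0.10. Tff3, a mucosal peptide, rose by 1.67 and stood at 10.82 in control female 9 and 10.99 in Rapa female 9 but at most at 9.17 in the other 6 high livers.

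The neutrophil score and the acute phase genes did not rank the livers alike, and 2 Rapa females stood apart from the rest of their sets. An index was formed as the mean of a list's centred genes in each mouse, without neutrophil genes. In Rapa female 10, whose score of -1.04 placed it in the low set, the acute phase index was 0.54 and the fatty acid oxidation index -0.29, while the other 11 low livers had acute phase indices from -0.64 to -0.07. Its Saa1 level was 12.21, its Orm2 15.51, its Acot1 8.11 and its Hao2 6.86, all in the range of the high set.

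In the acute phase genes Rapa female 9 had the opposite combination. Its score was 3.19 and its fatty acid oxidation index -0.44, but its acute phase index was 0.07, while the other 7 high livers had 0.39 to 0.74. Its Saa1 was 8.6 and its Saa2 8.17, in the range of the low set, and its Orm2 of 14.03 and Mt2 of 9.44 were the lowest of the high set. Without these 2 mice 3076 transcripts were called, 1272 higher and 1804 lower, an alternative chosen after the values were seen.

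**Figure D5:**
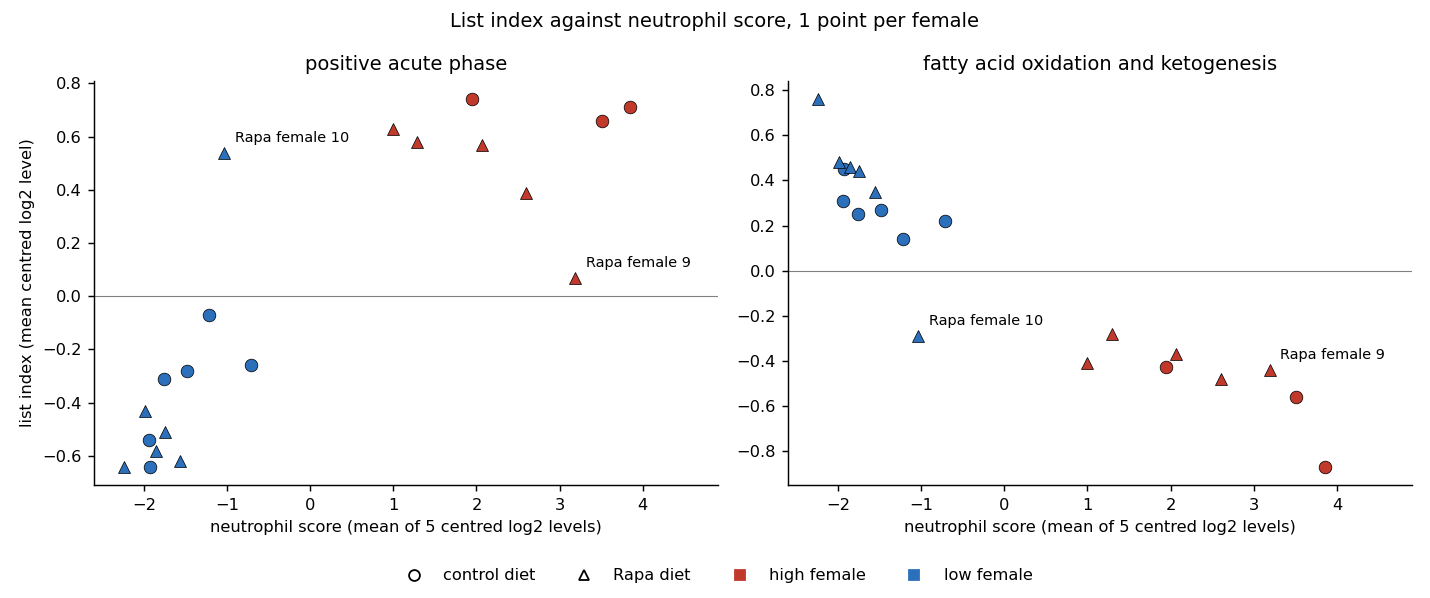
Acute phase index and fatty acid oxidation index (vertical axes, mean centred log2 level) against the neutrophil score (horizontal axis, log2) in the 20 females. Rapa female 10 had a score of -1.04 with an acute phase index of 0.54, and Rapa female 9 a score of 3.19 with an index of 0.07.

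The likeness of a gene to the score was taken as Pearson's r over the 20 females after removal of diet means, as a description, since the sets themselves were made from the score. Ly6c1 was the closest of the named genes outside the neutrophil lists (r = 0.97), followed by Serpina1e, Plac8, F13a1, Rab27a and Hdc, each at 0.93. Rab27a directs granule secretion and Hdc makes histamine. Within the 8 high livers r stayed at 0.99 for Ly6c1 and 0.88 for Hdc but was 0.12 for Mt2 and 0.16 for Apcs, which had 0.91 and 0.89 over all 20. In Mt2 and Apcs, whose sets overlapped slightly, the likeness over all 20 livers was thus not seen inside the high set. Within the 12 low livers r was 0.63 for Mt2 and 0.73 for Apcs, beside 0.51 for Ly6c1 and 0.69 for Hdc.

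The 22 males were used to ask which transcripts move with the same 5 genes in mice that the division did not touch. The slope is the log2 change per unit of the male score, adjusted for diet. Male scores ran from -0.49 to 1.45, a narrower range than in females, and the 3 highest were Rapa male 12 (1.45), control male 3 (0.72) and Rapa male 6 (0.66). Ngp was detected in 3, Camp in 4 and Ltf in 6 of the 22 males, so that the male score rested mainly on S100a8 and S100a9. Of 12719 transcripts 1129 were called, 632 with a positive slope (4.97%) and 497 with a negative slope (3.91%).

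Of the 1145 transcripts higher in high females 369 (32.2%) had a positive slope called in males, and of the 1628 lower transcripts 301 (18.5%) a negative one. Seen from the males, 58.4% of positive and 60.6% of negative calls were shared. The positive counts include the 5 defining genes, which make up the score and were bound to move with it, and other neutrophil genes. Only 3 transcripts, chosen after their values were seen, were called in opposite directions, those of Alas2, Arsa and Cux2. Without regard to calls 1037 of the 1145 and 1495 of the 1628 had the same sign in males.

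These male slopes rested on few mice. Without control male 3, 177 transcripts were called, of which 78 and 29 were shared with the higher and lower calls of females, and without Rapa male 8, 749. Without Rapa male 12, the male with the highest score, 2036 were called, and 494 and 542 were shared. Without the 3 males of highest score only S100a8 and S100a9, which define the score, were called. With median centring 475 were called, and with a score of S100a8 and S100a9 alone 968.

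The liver genes with called male slopes included both directions. Of 44 named genes with a called slope 25 were no longer called without control male 3, Orm2, Mt2 and H2-DMa among them. Saa1 had a slope of 2.04 (limma, adjusted p = 0.00328), Orm2 of 1.97 (0.00682) and Mt2 of 1.05 (0.0079). Car3 had -2.14 (0.00916), Acot1 -1.57 (0.00361) and Acaa1b -1.01 (0.00429). Serpina1e (0.97, adjusted p = 0.282), C8a (0.18, adjusted p = 0.622), Hao2 (-0.35, adjusted p = 0.0576) and A1bg (0.00, adjusted p = 0.994), which were among the largest ratios in females, were not called in males. Hao2 was detected in only 6 and A1bg in only 7 of the males, so that most of their male values are at background. For Hao2 and A1bg the absent call therefore cannot decide whether they move with the score in males. Serpina1e and C8a were detected in all males. Whether the male slopes and the female ratios differ was not tested.

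As lists, 13 of 38 acute phase genes had a positive slope called and 0 a negative one (median slope 0.41), and 14 of 29 fatty acid oxidation genes a negative slope and 0 a positive one (median -0.43). Of the 19 macrophage genes 13 were positive. MHC class II genes, of which 0 were called in females, were positive in 5 of 9 genes in males, with a median slope of 0.94, for example H2-DMa with 0.98 (adjusted p = 0.0137).

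The 10 genes outside the neutrophil lists with the lowest male p-values among those called the same way in females were Sgk2, Ppp3cc, Rab27a, Tlr6, Hdc, Atp5d, Cpne8, Ifitm2, F13a1 and Ccl6. The female call of Tlr6 was lost on leaving out 15 of the 20 females singly. Sgk2, a serum and glucocorticoid regulated kinase, lay between 9.27 and 10.18 in high and 10.01 and 11.93 in low females (ratio -1.51 ± 0.19) and had a male slope of -1.06 (adjusted p = 0.000125). Hdc lay between 8.98 and 10.53 against 8.22 and 8.76, with no overlap (ratio 1.14 ± 0.17), and had a male slope of 0.69 (adjusted p = 0.000397). Ifitm2, an antiviral membrane protein, lay between 13.69 and 14.36 against 12.78 and 13.9 and had a male slope of 0.61 (adjusted p = 0.00188).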

How the data were processed

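Liver RNA of 42 mice was measured with 1 array per mouse, and the 20 female arrays were compared. Probe intensity, as the authors deposited it for 25697 probes, was exported from Genome Studios on a linear scale and not normalized. Beside it they deposited the detection score, a fraction from 0 to 1. The authors also deposited log2 values, quantile-normalized in Matlab, for 17082 probes, used here as an alternative.

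The intensities were log2-transformed and quantile-normalized over 42 arrays. A probe was tested when its detection score exceeded 0.95 on at least 9 arrays. Ratios were fitted in limma 3.58.1 (R 4.3.3, statmod 1.5.0) with diet as covariate, and p-values were adjusted by the Benjamini-Hochberg method over all tested probes. Methods of the study used t-tests with an adjusted p and a minimum change. The fits were tested on simulated data. Gene symbols came from the platform annotation, and a gene in a list was read from its brightest tested probe.

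The mice, the gene lists and the thresholds were chosen with earlier results of these data known. Named genes were the 5 defining genes, the 10 largest increases and 10 largest decreases among called transcripts outside the neutrophil lists, up to 4 called genes per list by adjusted p (the 2 lowest where none was called), and 10 called in both sexes. Other genes of the lists are named as markers or as exceptions, and were chosen after their values were seen. Slide and scan date are not given in the sources at hand. Alternatives covered samples, covariates, blocks, normalization, background, filters, thresholds and the test.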

Additional observations from a re-analysis of the deposited data

Results flagged for a closer look

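Within the 5 high Rapa, 6 low Rapa and 6 low control females, a mouse is listed here where its gap to the nearest other mouse took up most of the range of its group by Dixon's criterion. Of 327 such tests of named genes 44 met it, while chance alone flags about 1 in 20 groups, and 33 of the 44 fell on 2 mice. Levels are log2.

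Rapa female 10, in the low set, accounted for 22. It was above the other 5 low Rapa females in Mt2 (9.55), Saa1 (12.21), Saa2 (11.56), Orm2 (15.51), Cxcl1 (12.18), Egfr (11.64), Cd14 (9.84), Itih3 (14.04), Serpina3n (14.89), Hrg (12.34), Cxcl14 (8.75), Tff3 (7.38), Rab27a (8.62), Cpne8 (9.56) and Ifitm2 (13.9). It was below them in Cyp4a14 (8.58), Car3 (10.93), Cyp4a31 (7.52), Acot1 (8.11), Hao2 (6.86), Acaa1b (13.65) and Agxt (11.76). These are the directions in which the high set differed from the low set.

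Rapa female 9, in the high set, accounted for 11. It was below the other 4 high Rapa females in Mt2 (9.44), Saa1 (8.6), Orm2 (14.03), Saa2 (8.17) and Egfr (10.91), and above them in Acot1 (9.67), Hao2 (7.39), Ppbp (9.13), Ugp2 (10.76), Tlr6 (8.23) and Hdc (10.53). The first 7 and Ugp2 ran toward the low set and the other 3 away from it.

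Rapa female 11 was below the other high Rapa females in Car3 (8.22) and above them in Cd14 (10.65). Rapa female 2 was above the other low Rapa females in Plk1 (7.96) and Nusap1 (7.78), and Rapa female 1 was below them in Ptprb (10). Among the low control females, control female 7 stood above the others in C8a (10.38) and below them in A1bg (13.69) and Hamp2 (14.65), control female 3 above them in Ppbp (7.99), and control female 1 above them in H2-Eb2 (7.44) and Timp3 (9.74).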

How the results depend on the processing

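The count of called transcripts (2773) stayed within 1.5 times under 36 of 40 alternatives, and leaving out each female in turn gave 2116 to 3099. It was 1177 in control females alone, 572 in Rapa females alone and 806 with an absolute ratio over 0.5. It was 4210 with median centring, which moved the median ratio to -0.10 and left 523 of the calls higher. Leaving out Rapa females 9 and 10 was an alternative chosen after seeing the data, as were leaving out the 3 highest males and repeating the tests of array measures and diet without control females. The interaction had 0 calls, and 1 without control female 6 (Anxa1, -1.61, adjusted p = 0.00609) or without control female 7 (Eif3h, -0.75, adjusted p = 0.0448). The male slope gave 1129 calls, 475 with median centring, 2 without the 3 highest males, and 177 (without control male 3) to 2036 (without Rapa male 12) over single males, with 749 without Rapa male 8. H2-Eb2, not called, changed sign to -0.0305 without control females 6 to 9, to -0.0429 in Rapa females alone and to -0.0094 without control female 9 (up to 0.2062 without other single females), and the male slopes of Mt2 and Vwf to -0.0493 and -0.17 without the 3 highest males. The causes were not tested.

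With the replicate number as a block 2586 transcripts were called. The labels do not pair same-numbered mice of the 2 diets. Their deviations correlated above 0.1 in 3 of 9 pairs, and limma's correlation within the block was 0.12. Whether such mice shared a cage, slide or day was not tested.

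List medians changed sign with median centring for MHC class II, T and NK cell, erythroid, endoplasmic reticulum, stellate cell and proteasome genes. At most 7 named calls were lost on leaving out 1 female. In the smaller sets of a single diet 52 named calls were lost within Rapa females and 27 within control females. Those lost within Rapa females include Saa1, Saa2, C8a and Serpina6. Among probes detected on no array 33 of 9720 passed the same threshold, and genes detected in few livers have only background values in the others. Genes named outside the rule were not refitted singly.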

Other observations

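Genes of canonical histone H2A, a group chosen after the values were seen, were higher in the high livers. Of 11 H2A genes 9 were higher and 0 lower, with a median ratio of 1.63, and H2ac24 had the largest ratio, with 10.63 to 13.66 in the high and 9.0 to 10.82 in the low set (1.98 ± 0.29, adjusted p = 9.7e-05). H2B genes, which are transcribed in pairs with H2A genes, did not share this. Of 8 H2B genes 0 were higher and 1 lower (median 0.04), and of 9 H4 genes 2 were higher (median 0.22). In males 0 of the 11 H2A slopes were called. They ran from -0.01 for H2ac18 to 1.19 for H2ac24 (limma, adjusted p = 0.0637). Copies within each histone family are nearly identical, and a probe may read several of them.

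Terminal complement genes, also grouped after their values were seen, rose in 5 of 6, namely C6, C8a, C8b, C9 and Hc, with ratios from 0.83 to 2.54. C8g, the third chain of C8, was lower, with 13.01 to 13.94 in the high and 13.75 to 14.38 in the low set (-0.53 ± 0.12, adjusted p = 0.00373). The chains of 1 complex thus moved in opposite directions.

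Cirbp and Rbm3, RNA-binding proteins named for induction by cold, were both higher. Cirbp lay between 9.08 and 10.68 in the high and 8.12 and 9.56 in the low set (1.70 ± 0.19), and Rbm3 between 9.19 and 12.12 against 8.69 and 10.05 (0.91 ± 0.29). Their male slopes were 0.73 (limma, adjusted p = 0.0264) and 0.69 (adjusted p = 0.0298).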
